A study of Mus musculus with 2 samples.

Results

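Provisional matrix and hyaluronan genes encode the loose, water-rich scaffold through which cells of an embryonic tissue move and gather. The members described here are 8 genes chosen by name: Has2, Cd44, Vcan, Fn1, Tnc, Thbs1, Postn and Sparc, of 32285 genes in the deposited matrices. They were followed in E14.5 mouse skin, in dermal cells, in epidermal cells and in the other cell types that could be recognised from markers. The skin came from the back and flank and was sequenced as single cells with the 10x 3' v3.1 chemistry. There was 1 wildtype library, from littermate controls, and 1 Wntless mutant library, each from 2 to 3 pooled embryos. The mutants came from a cross of K14Cre mice to Wntless fl/fl mice. K14 drives Cre in the epidermis, and Wntless (Wls) is the carrier that brings Wnt ligands to the cell surface. The allele carried by the controls is not given in the sources used here.

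Hyaluronan is a long sugar polymer spun out at the cell surface by hyaluronan synthases, and in the embryo it swells the space between cells. Versican binds it, CD44 is a cell-surface receptor for it, and fibronectin, tenascin C and thrombospondin 1 are glycoproteins that bind cells and one another in matrix that is being laid down or remodelled. Periostin and SPARC act where that matrix matures into collagen fibres. In skin the first hair follicles form at this stage from an epidermal placode above a cluster of dermal cells, the dermal condensate, and both depend on Wnt signals.

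Levels are given as CPM, the depth-scaled count of a gene's UMIs (counted transcript molecules) over all UMIs of a cell class in a library, with exact Poisson 95% intervals where a level is weighed. Ratios are mutant over wildtype on the log2 scale with an exact conditional binomial interval. With 1 library per genotype there is no test and no p-value, and all intervals cover counting error only. Differences between the genotypes and between the libraries or pools of embryos cannot be told apart. A gene is counted as higher or lower past 1.5-fold. Shares of cells with a UMI come from cells thinned to 6000 UMIs each, with shallower cells left out, because the mutant library was deeper.

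In all 9065 wildtype barcodes gave 112593376 UMIs (median 11341 per barcode) and 10449 mutant barcodes gave 159841679 (median 14602). Outside the dermal lists, 547 wildtype and 1568 mutant barcodes fell in clusters left unnamed for low depth or high mitochondrial share. The median mitochondrial share of these barcodes was 0.475% in the wildtype and 65.1% in the mutant. In the dermis it was 1.97% and 2.44%. The libraries shared 19 barcodes, 4 of them on the dermal lists. Wls itself stood at 121 CPM in wildtype and 7.64 CPM in mutant epidermal-like cells, and at 91.8 and 77.0 CPM in the dermis. The dermis is the authors' own barcode lists, 5300 wildtype and 5028 mutant cells. All 10 fibroblast markers were detected in it in both libraries, summing to 16379 CPM in the wildtype and 22240.4 CPM in the mutant, against 45.1 and 39.1 CPM for 12 epidermal markers. Globin and other erythroid markers summed to 519 and 1269 CPM there, and their part in the results was not tested.

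Dermal cells were divided by marker genes that exclude the members. Condensate cells carried a UMI of 3 or more of 8 condensate genes, Wnt-active cells carried 3 or more of 8 Wnt target genes, and the rest were upper or lower cells by whichever set of 8 genes was seen more often, or undecided where the sets tied. There were 240 condensate cells in the wildtype and 0 in the mutant, 4.76% of 5040 thinned wildtype cells and 0 of 4910 mutant cells. Wnt-active cells were 1335 in the wildtype (26.5%) and 304 in the mutant (6.19%). Upper cells were 1666 and 1684, and lower cells 1090 and 1664. Undecided cells were 709 in the wildtype (14.1%) and 1258 in the mutant (25.6%). Many cells lay near these limits: 790 wildtype and 247 mutant cells had exactly 3 Wnt target genes, and 1069 and 922 had exactly 2.

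RefSeq promoter windows (GRCm38.p6) matched 5 of the 8 members. The 250 bases before the start are shown for Postn and Vcan, the members with the highest ratio of mutant over wildtype in either tissue, dermis first, with motif matches in capitals. The Postn window, chr3:54360857-54361106 on the plus strand, ends where a transcript of the gene begins. RefSeq holds a second Postn window, chr3:54359017-54359266, in which none of the motifs searched was found, and it is not shown. The Vcan window, chr13:89742513-89742762, lies on the minus strand.
Postn: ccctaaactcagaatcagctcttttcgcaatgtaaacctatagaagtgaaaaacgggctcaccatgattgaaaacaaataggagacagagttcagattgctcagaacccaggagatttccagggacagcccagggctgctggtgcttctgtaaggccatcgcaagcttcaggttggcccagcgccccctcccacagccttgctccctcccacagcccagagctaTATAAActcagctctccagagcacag
Vcan: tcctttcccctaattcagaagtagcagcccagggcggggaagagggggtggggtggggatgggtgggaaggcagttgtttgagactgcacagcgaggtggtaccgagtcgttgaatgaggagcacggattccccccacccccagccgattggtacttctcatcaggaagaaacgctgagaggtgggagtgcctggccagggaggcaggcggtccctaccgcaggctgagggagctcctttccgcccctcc
Searched on both strands were CTTTGA, the core that TCF/LEF factors bind, TGANTCA, the AP-1 site, and TATAAA, the TATA box. They overlap none of each other's letters in these windows. The Postn window shown held TATAAA, with its first base 26 bases before the start, and Vcan held no match to any of them. Over all 32851 RefSeq windows of this length, 13.8% held CTTTGA, 6.75% TGANTCA and 12.4% TATAAA. The absence of a match says only that these letters are not in the window.

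In the wildtype dermis the members fell into opposite patterns. Has2, the main hyaluronan synthase of embryonic tissues, was highest in the condensate, at 115 CPM (95% interval 103 to 129), and stood at 66.5 CPM in Wnt-active, 41.2 CPM in upper and 10.5 CPM in lower cells. The share of cells with a Has2 UMI followed the same order, 45.8%, 31.2%, 20.9% and 5.41%. No interval of these levels overlapped the next. Cd44, the hyaluronan receptor, was high at both ends: 88.5 CPM in the condensate and 74.7 CPM in lower cells, against 31.6 CPM in Wnt-active and 28.3 CPM in upper cells. The last pair differed by 0.16 on the log2 scale, with an interval from -0.01 to 0.33. Of 240 condensate cells, 110 had a Has2 UMI, 85 a Cd44 UMI and 41 both.

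Fn1, the fibronectin gene, ran the other way. It stood at 108 CPM in the condensate, 162 CPM in Wnt-active, 263 CPM in upper and 593 CPM in lower cells. Sparc, whose product binds collagen, was ordered alike, from 624 CPM in the condensate over 1516 and 1914 CPM to 3382 CPM in lower cells. Thbs1, the thrombospondin 1 gene, was 24.3, 29.5, 65.5 and 169.5 CPM in the same order, and the intervals of the condensate and Wnt-active cells overlapped. Has2 and these 3 genes thus had their extremes in opposite classes of the wildtype dermis.

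Postn, the periostin gene, and Tnc, the tenascin C gene, were lowest in Wnt-active cells. Postn stood at 316 CPM in the condensate, 73.8 CPM in Wnt-active, 169 CPM in upper and 923 CPM in lower cells. Tnc was a low transcript with 31.7 CPM in the condensate, 4.72 CPM in Wnt-active, 10.5 CPM in upper and 13.2 CPM in lower cells. Condensate cells thus held 4.28-fold more Postn and 6.72-fold more Tnc than Wnt-active cells, and 1.74-fold more Has2. Vcan, the versican gene, had the narrowest range of the 8 members over these classes, with 169 CPM in the condensate, 123 CPM in Wnt-active, 176 CPM in upper and 303 CPM in lower cells.

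**Figure D1:**
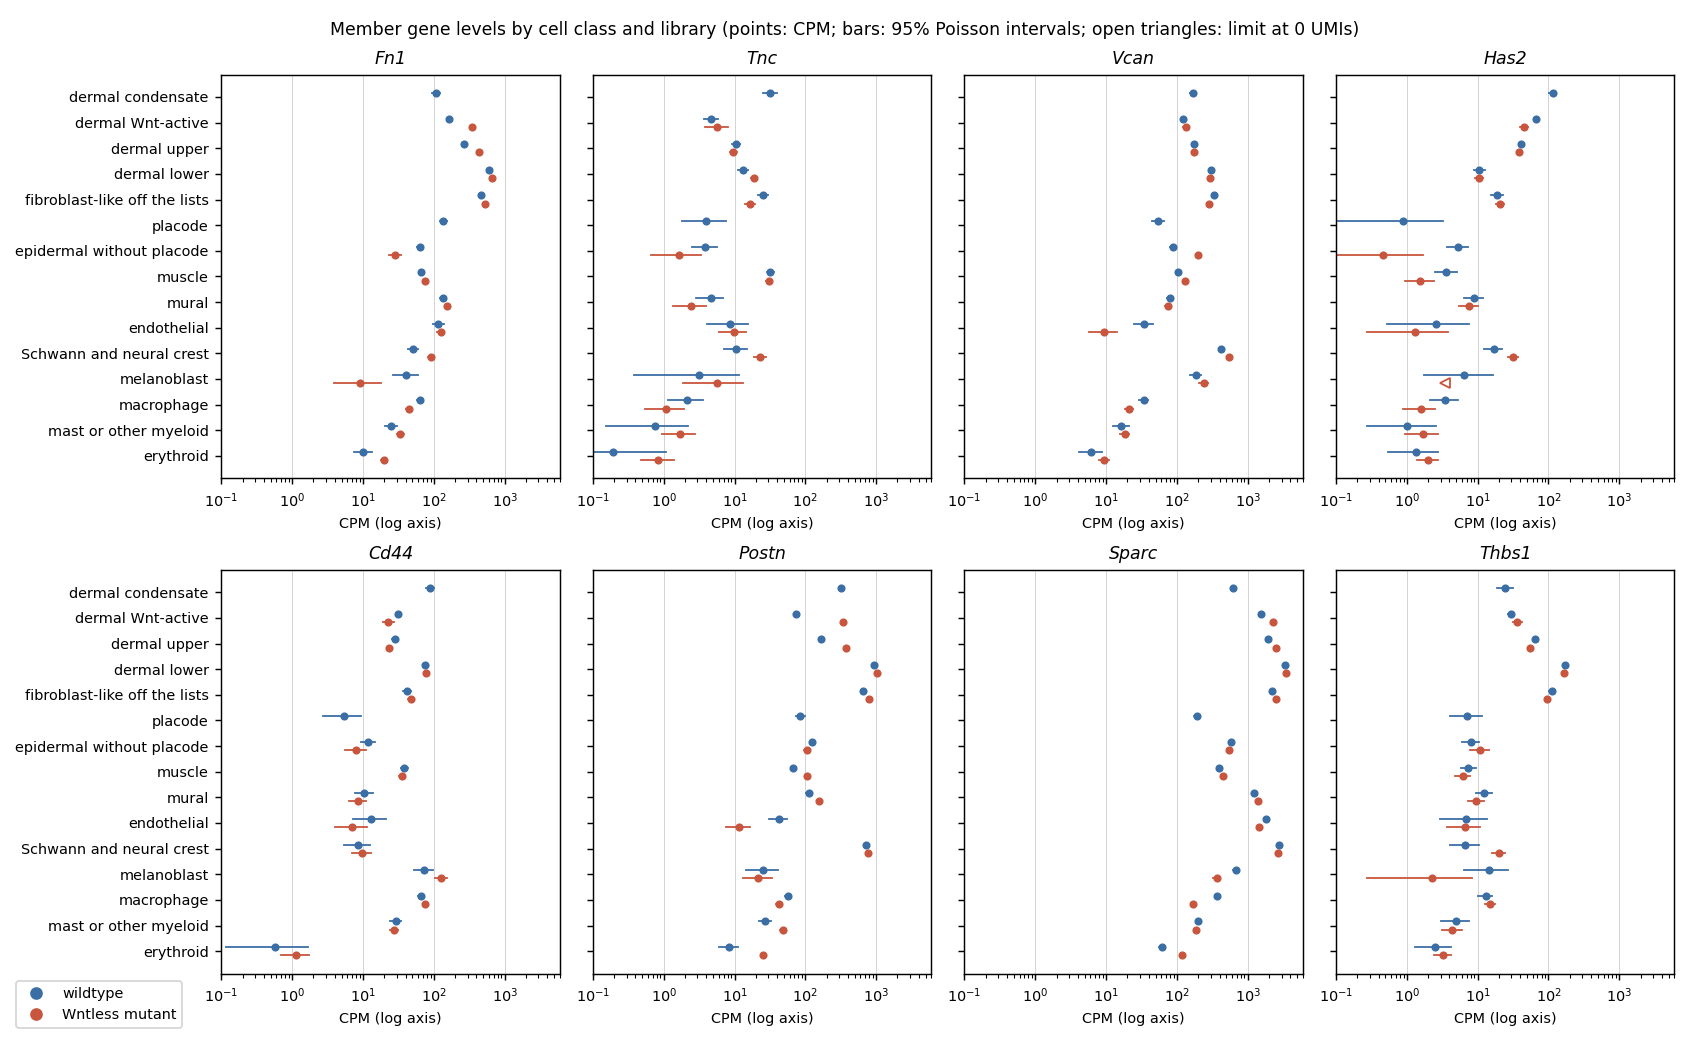
CPM of each member (log axis, horizontal) by cell class (vertical), for the wildtype (blue) and mutant (red) library, 1 library each. Undecided dermal cells and unnamed cells are not shown. Points are levels, bars 95% Poisson intervals and open triangles the limit at 0 UMIs. Has2 falls from the condensate (115 CPM) to the lower dermis (10.5 CPM), while Fn1 climbs from 108 to 593 CPM in the wildtype.

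Between genotypes, over all dermal cells, Postn went from 323 CPM in the wildtype to 597 CPM in the mutant and Fn1 from 311 to 500 CPM. Has2 went from 42.9 to 27.9 CPM. Postn differed by 0.89 on the log2 scale (0.86 to 0.91), Fn1 by 0.69 (0.66 to 0.71) and Has2 by -0.62 (-0.70 to -0.54). So 2 members were higher and 1 lower, and 5 lay within 1.5-fold. Of 15609 genes measured with 20 or more UMIs, 10.9% were higher and 5.64% lower. The median log2 ratio was 0.24 over the members and 0.03 over all measured genes.

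Of the members within 1.5-fold, Sparc was 2115 CPM in the wildtype and 2857 CPM in the mutant, a log2 ratio of 0.43. Thbs1 was 78.9 and 93.6 CPM (0.25), and Tnc 10.6 and 12.4 CPM (0.23). Vcan was 194 and 218 CPM (0.17). Cd44 was alike in both, at 41.0 and 40.7 CPM, with an interval of the log2 ratio from -0.09 to 0.06. The share of cells with a Postn UMI was 52.4% in the wildtype and 83.5% in the mutant, with a Fn1 UMI 70.4% and 87.3%, and with a Has2 UMI 20.7% and 13.7%. Without thinning these shares were 62.1% and 93.2%, 82.4% and 96.8%, and 32.6% and 28.0%.

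The makeup of the dermis moved with these differences. Wnt target genes summed to 457 CPM in the wildtype and 205 CPM in the mutant dermis, lower dermis genes to 2090 and 3021 CPM, and upper dermis genes to 4506 and 3272 CPM. With Wnt-active, upper and lower cells given equal weight and condensate and undecided cells left out, the log2 ratio was 0.58 for Postn, 0.50 for Fn1 and -0.34 for Has2, and none of these passed 1.5-fold. Without condensate and Wnt-active cells Has2 was at -0.15, Fn1 at 0.44 and Postn at 0.57. Thbs1, at 0.25 over all dermal cells, was -0.05 under both.

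Within the subclasses the size of the difference was unequal. In Wnt-active cells Postn was 73.8 CPM in the wildtype and 340.5 CPM in the mutant, a log2 ratio of 2.21 (2.10 to 2.31), and 22.8% of wildtype and 74.3% of mutant cells had a UMI. Fn1 was 162 and 351 CPM there, a log2 ratio of 1.11 (1.03 to 1.20). In upper cells Postn was 169 and 377 CPM (1.16) and Fn1 263 and 435 CPM (0.72). In lower cells both were nearly level, Postn at 923 and 1028 CPM (0.16) and Fn1 at 593 and 660 CPM (0.15).

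Among all measured genes, 9.41% were higher and 7.38% lower past 1.5-fold in Wnt-active cells, 8.64% and 5.21% in upper cells, and 7.38% and 2.91% in lower cells. Has2 was 66.5 and 44.6 CPM in Wnt-active cells, a log2 ratio of -0.58 (-0.79 to -0.37), against -0.10 (-0.23 to 0.03) in upper and -0.01 (-0.31 to 0.30) in lower cells. Cd44 was -0.47 in Wnt-active, -0.26 in upper and 0.05 in lower cells. Sparc was 0.58, 0.39 and 0.04 in the same order. In lower cells 7 members lay between -0.05 and 0.16, and Tnc stood at 0.49. The wildtype order of Wnt-active below upper cells was narrower in the mutant: Postn was 2.29-fold lower in Wnt-active than in upper cells in the wildtype and 1.11-fold lower in the mutant. The differences between subclasses in these ratios were not tested. In undecided cells Postn was 299 and 397 CPM (0.41) and Fn1 353 and 418 CPM (0.24). Has2 was 0.19 there (-0.02 to 0.40), Sparc 0.18, Vcan -0.19, Tnc -0.21, Cd44 -0.42 and Thbs1 -0.45, so all 8 lay within 1.5-fold. Of 12899 genes measured in undecided cells, 8.09% were higher and 4.72% lower.

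The Wnt-active and upper cells of the 2 libraries came largely from different clusters, named here by number. Of Wnt-active cells 658 of 1335 in the wildtype (49.3%) were in cluster 5 and 24 (1.80%) in cluster 0, whereas 2 of 304 in the mutant were in cluster 5 and 176 (57.9%) in cluster 0. Of upper cells 485 in the wildtype and 6 in the mutant were in cluster 5, and 194 and 886 in cluster 0. Within Wnt-active cells Wnt target genes summed to 872 CPM in the wildtype and 459 CPM in the mutant, fibroblast markers to 13970 and 21826 CPM, and lower dermis genes to 847 and 1349 CPM. Within upper cells Wnt target genes summed to 357 and 244 CPM and fibroblast markers to 15484 and 21819 CPM.

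A comparison of Wnt-active cells within clusters that held 30 or more of them in each library was added after seeing the data, and clusters 2 (411 and 74 cells) and 7 (193 and 37 cells) met it. In cluster 2 Postn was 54.9 CPM in the wildtype and 284 CPM in the mutant (2.37, 2.16 to 2.58), and in cluster 7 it was 42.6 and 248 CPM (2.54, 2.19 to 2.89). Fn1 was 151 and 301 CPM (0.996, 0.83 to 1.16) in cluster 2 and 141 and 305 CPM (1.12, 0.87 to 1.36) in cluster 7. Has2 was 56.5 and 36.2 CPM in cluster 2 (-0.64) and 50.8 and 44.6 CPM in cluster 7 (-0.19, -0.79 to 0.38). The ratios of Postn in these clusters were no smaller than the 2.21 over all Wnt-active cells, and those of Fn1 lay on either side of 1.11. The top genes of cluster 2 were histone genes such as Hist1h1b, and those of cluster 7 included Cenpf and Ccnb2. Both sets are cell cycle genes, so the comparison may not match cells of like dermal state. At resolution 1.0 histone-rich cells split by library, with 1055 wildtype and 15 mutant cells in a cluster and 19 and 643 in another. In upper cells, over the clusters that met the same limit with equal weight, Postn was at 0.65 and Fn1 at 0.45, below the 1.16 and 0.72 over all upper cells, and Thbs1 was at -0.62 against -0.23. The part of the marker sums in these ratios was not tested.

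**Figure D2:**
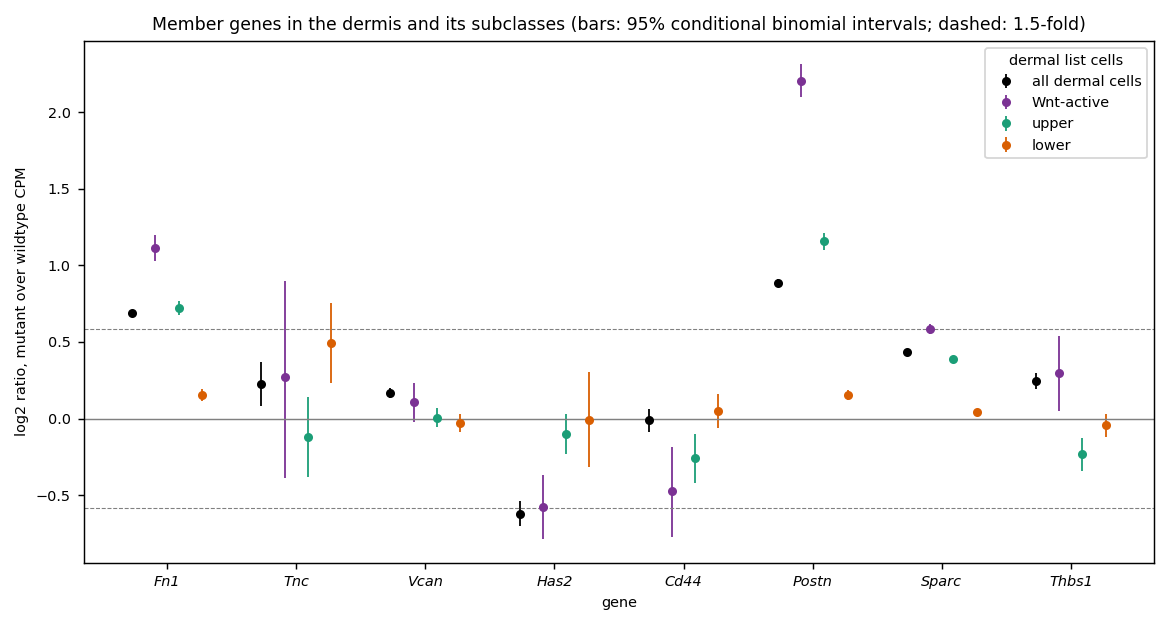
Log2 ratio of mutant over wildtype CPM (vertical) for each member (horizontal), in all dermal cells (black) and in Wnt-active (purple), upper (green) and lower (orange) cells. Bars are 95% conditional binomial intervals and dashed lines mark 1.5-fold. Postn falls from 2.21 in Wnt-active to 0.16 in lower cells, and Fn1 from 1.11 to 0.15.

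The shares of positive cells, which do not depend on a few cells rich in a transcript, were ordered alike. In upper cells 44.2% of wildtype and 78.1% of mutant cells had a Postn UMI, and 68.4% and 84.6% a Fn1 UMI. In lower cells the Postn shares were 92.5% and 94.7% and the Has2 shares 5.41% and 5.35%. Over the 6 clusters with 50 or more dermal cells in each library, the log2 ratio of Fn1 was above 0 in 6 (0.06 to 0.75), that of Postn in 6 (0.11 to 1.47), that of Sparc in 5 and that of Has2 in 2. Vcan was above 0 in 3 (-0.71 to 0.21) and Thbs1 in 2 (-0.93 to 0.14). Tnc was above 0 in 2 (-1.74 to 0.64) and Cd44 in 1 (-0.47 to 0.77). Among the clusters left out were cluster 5, with 1336 wildtype dermal cells, and cluster 17, with 222. In cluster 17 Has2 was at 118 CPM and Fn1 at 111 CPM.

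**Figure D3:**
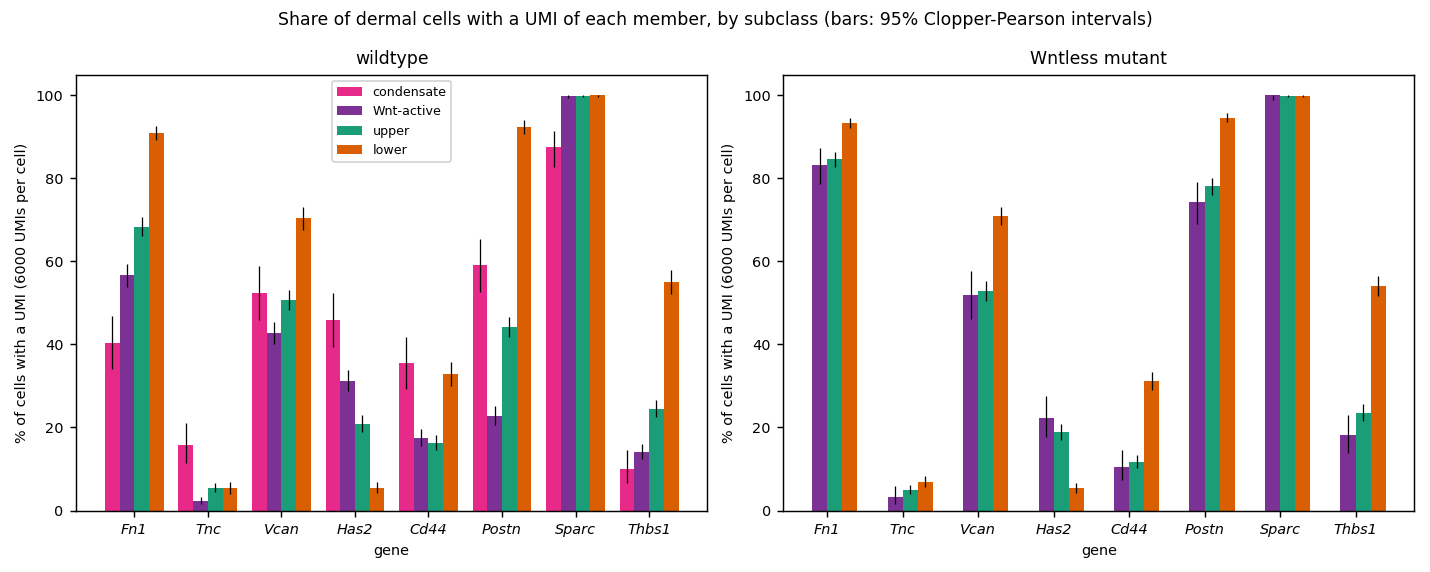
Share of dermal cells with a UMI of each member (vertical, percent of cells thinned to 6000 UMIs) by subclass, in the wildtype (left) and the mutant (right), where there were no condensate cells. Bars start at 0 and error bars are 95% Clopper-Pearson intervals. Has2 steps down from 45.8% in the condensate to 5.41% in lower cells of the wildtype, and Postn in Wnt-active cells is at 22.8% on the left and 74.3% on the right.

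Other genes of the same pathways were taken from a list of 85 genes in 8 role groups, of which 66 were measured in the dermis. There, 13 were higher, 10 lower and 43 within 1.5-fold in the mutant, with a median log2 ratio of 0.18, where 10.9% of all measured dermal genes were higher and 5.64% lower. All 6 hyaluronan synthesis genes and all 5 measured hyaluronan breakdown genes lay within 1.5-fold, with Has2, counted as a member, outside it. Of 8 measured hyaluronan receptors and binders, 2 were higher and 2 lower. Hapln3, which links hyaluronan to proteoglycans, had 629 UMIs in the wildtype and 126 in the mutant, 6.45-fold lower in CPM, and Hmmr, a hyaluronan-binding protein of dividing cells, was 109 and 68.5 CPM.

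Among hyalectans and versican-cutting proteases 3 of 6 were higher and 1 lower. Adamts5 was 17.3 CPM in the wildtype and 32.4 CPM in the mutant, while Adamts20 was 22.8 and 13.2 CPM. In Wnt-active cells the log2 ratio of Adamts5 was 2.10, against 0.16 in upper and 0.28 in lower cells. Of the other tenascins and thrombospondins 3 of 5 were higher, Tnxb with 1.26 and 2.94 CPM and Thbs3 with 5.73 and 9.55 CPM.

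Of 13 other matricellular proteins 3 were higher and 5 lower. Smoc1 was 6.38 CPM in the wildtype and 0.641 CPM in the mutant, 9.96-fold lower, and Spp1, the osteopontin gene, rested on 43 and 10 UMIs. Tgm2, a transglutaminase that crosslinks matrix and binds fibronectin, was the 1 gene of 8 fibronectin and fibrin partners outside 1.5-fold, with 5.25 and 1.71 CPM. Of 15 matrix receptors 2 were higher and 1 lower. Itga4, a chain of a fibronectin-binding integrin, was 11.8 CPM in the wildtype and 30.8 CPM in the mutant, and its log2 ratio was 1.68 in Wnt-active, 1.51 in upper and 1.08 in lower cells. Itgb3, a chain of a vitronectin receptor, was 4.06 and 6.11 CPM.

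The epidermal-like class was a single cluster with all 12 epidermal markers detected in both libraries, 554 wildtype and 173 mutant cells. In the wildtype 151 of them carried 3 or more of 8 placode genes and in the mutant 0. Cells below that limit, called other epidermal-like cells, could still hold UMIs of placode genes. Over the whole class these genes summed to 660 CPM in the wildtype and 42.8 CPM in the mutant. Some cells of the cluster also carried dermal collagen RNA: the 3 collagen genes Col1a1, Col1a2 and Col3a1 stood at 11.6% of their dermal level in the wildtype and at a lower share in the mutant. Fibroblast markers summed to 2365 and 1496 CPM and erythroid markers to 12182 and 6615 CPM, and their part in the results was not tested. Member values, and those of the pathway genes named, are therefore given also for the 462 wildtype and 157 mutant cells in which these collagens made up at most 0.1% of UMIs, a limit chosen after seeing the data.

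Fn1 was 81.6 CPM in wildtype and 28.5 CPM in mutant epidermal-like cells, from 744 and 123 UMIs, a log2 ratio of -1.52 (-1.80 to -1.24). In cells low in collagen it was 57.8 and 2.63 CPM, from 399 and 10 UMIs, a log2 ratio of -4.46 (-5.53 to -3.57). There 169 of 462 wildtype cells (36.6%) and 8 of 157 mutant cells (5.10%) had a UMI before thinning. After thinning to 6000 UMIs these were 25.6% of 426 and 0 of 148 cells, the latter with an upper Clopper-Pearson bound of 2.46% at that depth. Over all cells of the class the ratio of Fn1 was -2.81 after thinning and -3.28 without the top 8% of doublet scores. Vcan went the other way, with 79.8 and 200 CPM (log2 ratio 1.33, 1.18 to 1.47) and 28.2% and 58.8% of cells. In cells low in collagen Vcan was 76.2 and 202 CPM (1.41).

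Over all epidermal-like cells 1 member was higher (Vcan) and 3 lower (Fn1, Tnc and Has2), where 7.87% of 11605 measured genes were higher and 15.6% lower. The median log2 ratio was -0.21 over the members and -0.09 over all measured genes. Has2 and Tnc rested on 38 and 2 UMIs and on 36 and 7 UMIs. In cells low in collagen Has2 had 2 UMIs in the wildtype and 0 in the mutant, and Tnc 15 and 6, a log2 ratio of -0.46 (-2.12 to 0.98), with 0 between them. Among measured genes in these cells 8.1% were higher and 15.3% lower.

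Sparc was 477 CPM in the wildtype and 541 CPM in the mutant (0.18), and 252 and 400 CPM (0.66) in cells low in collagen. With placode cells left out, the log2 ratio of Sparc was -0.07. Among cells low in collagen it was then 0.34 (0.24 to 0.44), within 1.5-fold, from 318 and 402 CPM. Postn was 114 and 105.2 CPM (-0.12), and 99.6 and 80.6 CPM (-0.30, -0.50 to -0.11) in cells low in collagen. Cd44 was 10.6 and 8.57 CPM, and Thbs1 7.89 and 10.7 CPM, each with an interval of the ratio that included 0. In cells low in collagen Cd44 was 8.41 and 6.04 CPM (-0.48, -1.24 to 0.24). Thbs1 had 12 and 4 UMIs there and turned direction, from 0.43 over all epidermal-like cells to -0.73 (-2.82 to 0.995). Fn1 was thus higher in the mutant dermis and lower in the mutant epidermis, and Vcan differed past 1.5-fold in the epidermis and not in the dermis. Neither difference between tissues was tested.

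In the wildtype, Fn1 was higher and Vcan lower in placode cells than in the other epidermal-like cells. Among cells low in collagen, Fn1 was 126 CPM in 140 placode cells and 29.7 CPM in 286 other epidermal-like cells, 4.25-fold higher, and 49.3% and 14.0% of cells had a UMI. Vcan was 41.9 and 89.4 CPM, 2.13-fold lower in the placode, and Sparc 99.5 and 318 CPM, 3.19-fold lower. Postn was 68.7 and 112 CPM. With placode cells left out as well, Fn1 was 29.7 CPM in the wildtype and 2.65 CPM in the mutant, a log2 ratio of -3.49 (-4.58 to -2.57), and Vcan 89.4 and 198 CPM, a log2 ratio of 1.15 (0.98 to 1.32).

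Has3, another hyaluronan synthase gene, showed the largest difference among the pathway genes named in epidermal-like cells. It had 310 UMIs in the wildtype (34.0 CPM) and 4 in the mutant (0.926 CPM), a log2 ratio of -5.20 (-7.08 to -3.83). In cells low in collagen it was 40.3 and 0.788 CPM. In the wildtype it was 83.3 CPM in placode and 22.3 CPM in other epidermal-like cells, 3.74-fold higher. In the mutant it was 0.794 CPM in other epidermal-like cells, where the wildtype had 22.3 CPM. Has2 in these cells was at or near 0 in both libraries.

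Of 85 pathway genes 46 were measured in epidermal-like cells, of which 4 were higher and 17 lower, with a median log2 ratio of -0.34, where 7.87% of all measured genes were higher and 15.6% lower. In cells low in collagen 30 were measured, of which 4 were higher and 9 lower, with a median of 0.15, where 8.1% and 15.3% of measured genes were. Ccn2, a secreted matricellular protein, was 28.3 CPM in the wildtype and 2.78 CPM in the mutant, and 34.5 and 2.63 CPM in cells low in collagen. Fbln1, the fibulin 1 gene, was 144 and 65.8 CPM, Ezr, which ties CD44 to the cytoskeleton, 84.4 and 32.9 CPM, and Sdc4, a syndecan that acts with integrins on fibronectin, 193 and 100.3 CPM. These 3 were also lower in cells low in collagen, with log2 ratios of -1.24, -1.55 and -1.17. Cemip2 was 12.3 and 7.64 CPM, and 13.6 and 7.62 CPM (-0.84) in cells low in collagen. Adamts5 was 5.59 and 9.03 CPM, and the ratio of Adamts5 was 0.31 in cells low in collagen. Thbs2 (7.02 and 1.39 CPM), Emilin1 (8.33 and 3.94 CPM) and Ccn4 (8.88 and 2.32 CPM) were lower over all cells, and in cells low in collagen Thbs2 had 7 and 3 UMIs, Emilin1 12 and 6, and Ccn4 2 and 5.

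**Figure D4:**
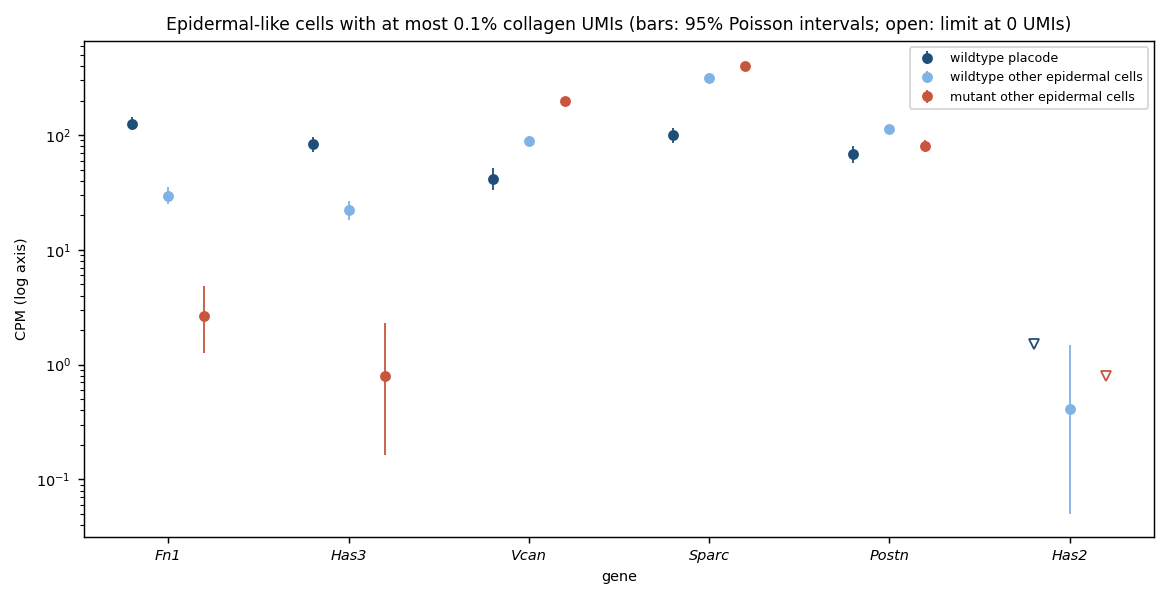
CPM (log axis, vertical) of 5 members and Has3 (horizontal) in wildtype placode cells, other wildtype and other mutant epidermal-like cells, all with at most 0.1% collagen UMIs. Points are levels, bars 95% Poisson intervals and open triangles the limit at 0 UMIs. Fn1 and Has3 step down from placode (126 and 83.3 CPM) to mutant cells (2.65 and 0.794 CPM), and Vcan steps up from 41.9 to 198 CPM.

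In other cell types, member levels were set beside the level that free dermal RNA alone would give, scaled by the same collagens. Erythroid-like cells, which are not known as a source of fibrous matrix, showed Fn1, Postn, Sparc and Vcan at 1.13, 0.90, 1.01 and 1.09 times that level in the wildtype and 0.95, 1.01, 0.98 and 1.01 times in the mutant. Levels there were read as background. In epidermal-like cells Vcan stood at 3.53 and 15.3 times the dermal-RNA level, Fn1 at 2.26 and 0.95 times and Has2 at 0.83 and 0.28 times. Macrophage-like cells stood far above it for Cd44, with 66.4 CPM in the wildtype and 76.2 CPM in the mutant, where dermal RNA alone would give 6.64 and 2.57 CPM. Their other members lay between 0.495 and 2.52 times that level.

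Muscle-like cells held Tnc at 32.0 CPM in the wildtype and 31.1 CPM in the mutant, 28.5 and 28.4 times the dermal-RNA level and close to the 31.7 CPM of the wildtype condensate. They also held Cd44 at 38.5 and 35.9 CPM and Vcan at 102 and 130 CPM. Schwann- and neural-crest-like cells held Vcan at 419 and 543 CPM, above every dermal subclass of the same library, Postn at 708 and 772 CPM and Sparc at 2738 and 2667 CPM. Higher past 1.5-fold in the mutant there were Has2 (16.8 and 31.7 CPM), Tnc (10.5 and 23.2), Fn1 (50.8 and 91.5) and Thbs1 (6.66 and 20.1). Of measured genes 8.66% were higher. Fn1 and Thbs1 lay below the dermal-RNA level in both libraries. Melanoblast-like cells, 39 and 46 in number, held Cd44 at 72.9 and 126 CPM and Vcan at 184 and 240 CPM. Endothelial-like cells (65 and 99) held Sparc at 1787 and 1458 CPM and Fn1 at 116 and 126 CPM, 3.38 and 6.75 times the dermal-RNA level. Lower past 1.5-fold in the mutant were Vcan (34.2 and 9.27 CPM), Postn (41.9 and 11.5) and Cd44 (12.8 and 7.06), where 6.38% of measured genes were lower. Vcan stood at 1.59 and 1.14 times the dermal-RNA level there and Postn at 1.17 and 0.515 times. The collagens were at 11.1% of their dermal level in the wildtype and 3.73% in the mutant. Cd44 rested on 15 and 16 UMIs, with an interval of the log2 ratio from -1.97 to 0.26. The part of free dermal RNA in these differences was not tested.

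**Figure D5:**
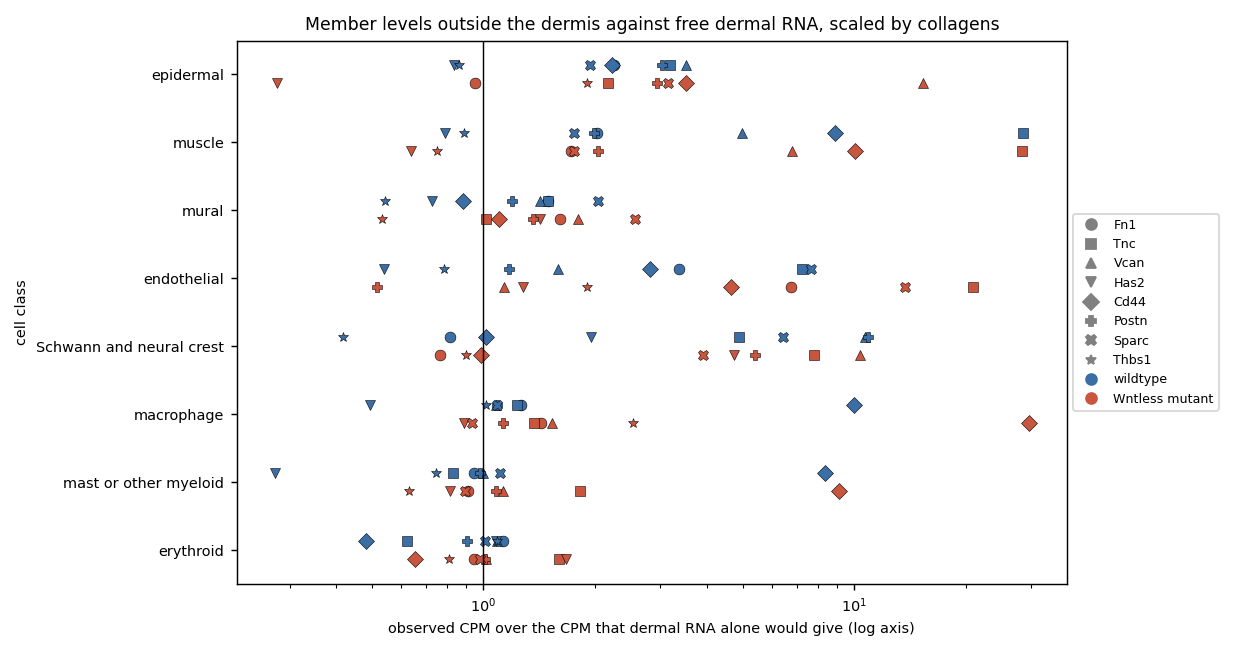
Observed CPM over the CPM that dermal RNA alone would give (log axis, horizontal, where 1 marks equality) for each member, wildtype in blue and mutant in red. The non-dermal classes shown are on the vertical axis. Melanoblast-like cells, placode cells apart and fibroblast-like cells off the dermal lists are not shown. Erythroid cells lie near 1 for well-counted members, while Cd44 in macrophage-like cells (29.6 in the mutant) and Tnc in muscle-like cells (28.5 and 28.4) lie far to the right.

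Across 26 pairs of class and library with 50 or more cells, Vcan and Postn were the members most alike, with a Pearson correlation of log2(CPM + 10) of 0.93, and Cd44 and Sparc the least, at 0.24. These points share libraries and free RNA, so the values are descriptions. Genes with 500 or more UMIs were searched, leaving out all marker genes of cell types and dermal subclasses. Among those searched, the closest to Has2 was Pde7b (0.96), to Sparc Serpinh1 (0.96), a collagen chaperone, to Thbs1 Tmem26 (0.97) and to Fn1 Hykk (0.94). The closest to Vcan was Irs2 (0.95), to Postn Epb41l3 (0.93), to Tnc Zdbf2 (0.87) and to Cd44 the immediate early gene Fos (0.84). The next nearest were Paqr8 and Mmp16 for Has2, Fkbp9 and Ppic for Sparc, Pax1 and Fam171b for Thbs1, Fkbp7 and Zbtb8a for Fn1, Rbms3 and Slc6a8 for Vcan, 6330403K07Rik and Vcan for Postn, Cdkn1c and Zbtb20 for Tnc, and Cul9 and Egr1 for Cd44.

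By position (GRCm38, GENCODE M21), all 8 are protein-coding genes. The genes are Fn1 (ENSMUSG00000026193) at chr1:71585520-71653200, Tnc (ENSMUSG00000028364) at chr4:63959785-64047015, Vcan (ENSMUSG00000021614) at chr13:89655312-89742509 and Has2 (ENSMUSG00000022367) at chr15:56665627-56694539. Cd44 (ENSMUSG00000005087) lies at chr2:102811141-102901665, Postn (ENSMUSG00000027750) at chr3:54361109-54391037, Sparc (ENSMUSG00000018593) at chr11:55394500-55423183 and Thbs1 (ENSMUSG00000040152) at chr2:118111876-118127133.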

How the data were processed

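The authors deposited UMI counts per gene and barcode for 1 wildtype and 1 Wntless mutant library (Cell Ranger 6.1.2, per the file headers; genome build mm10 and Seurat, per the submitters' processing notes), with a list of dermal barcodes for each. The files of barcodes and gene names, deposited by the authors, give other information, the names of columns and rows. How the dermal cells were chosen is not given in the sources used here. The members and the gene lists were chosen with earlier results of these data known.

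All barcodes were clustered together in scanpy 1.11.5 without the member and pathway genes: each cell was scaled to 10000 UMIs and log-transformed, the 2000 most variable genes were reduced to 30 components, and the graph of 15 nearest cells was partitioned by leidenalg 0.10.2 at resolution 0.5, with no batch correction. A cluster was named from 3 or more markers among its 50 top genes by fold, and clusters of low depth or high mitochondrial share stayed unnamed. Names rest on these rebuilt clusters. Scrublet called 244 wildtype barcodes and 1 mutant barcode, so it did not work in the mutant, and no barcode was removed. As an alternative the top 8% of scores in each library were left out.

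UMIs were summed per class and library, with exact Poisson, Clopper-Pearson and conditional binomial 95% intervals, and a gene at 0 was set against 3 counts over the class. The interval and thinning code was tested on simulated data. Pathway genes named are up to 2 per role group with 50 or more UMIs and the largest ratio past 1.5-fold. Like genes are the 3 with the highest correlation per member, with all marker genes left out of the search. Coordinates came from GENCODE M21, which held 32158 of 32285 gene identifiers.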

Additional observations from a re-analysis of the deposited data

Results flagged for a closer look

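Fn1 differed in opposite directions in the 2 tissues. Its log2 ratio of mutant over wildtype was 0.69 in the dermis and -1.52 in epidermal-like cells, with 1 library per genotype in each. The difference between the tissues was not tested. In epidermal-like cells with at most 0.1% collagen UMIs, a limit chosen after seeing the data, the ratio was -4.46.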

How the results depend on the processing

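Among the members no log2 ratio past 1.5-fold changed sign under any alternative run. Pathway genes were followed as counts only, and Ccn4 was lower over all epidermal-like cells but not in cells low in collagen. Of 100 recomputed counts 76 stayed within 1.5 times the value reported and 24 moved. Of 199 recomputed log2 ratios 58 moved out of their counting interval, as did 37 of 88 in dermal subclasses and 33 of 160 levels. In the dermis 2 members were higher and 1 lower. These counts became 1 and 0 in clusters shared by both libraries, and 0 and 0 both with Wnt-active, upper and lower cells weighted alike and without condensate and Wnt-active cells. With fibroblast-named clusters in place of the lists 0 members were lower. The 13 higher pathway genes became 8 in shared clusters and 7 without condensate and Wnt-active cells.

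In the epidermis the 1 higher member became 2 after thinning, in cells with at least 1000 genes and less than 5% of mitochondrial UMIs, at Leiden resolution 1.0 and with at most 0.1% collagen UMIs, the last added after seeing the data. The 3 lower members became 1 after thinning, without the top 8% of doublet scores, with 100 or more UMIs to count as measured and with at most 0.1% collagen UMIs. The 4 higher pathway genes became 2 after thinning, 2 with 100 or more UMIs, 2 without placode cells and 9 with 1 or more UMI. The 17 lower became 9 after thinning, 9 with 100 or more UMIs and 9 with at most 0.1% collagen UMIs. With 100 or more UMIs, Has2 (38 and 2 UMIs) and Tnc (36 and 7) no longer counted as measured. Of all genes at that limit 4.42% were higher and 11% lower. With at most 0.1% collagen UMIs, 30 pathway genes were measured in place of 46. What else moved these counts was not tested.

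Over all alternatives the log2 ratio in the dermis ran from 0.44 to 0.70 for Fn1, 0.57 to 0.90 for Postn and -0.68 to -0.11 for Has2, and in the epidermis from 1.16 to 1.496 for Vcan, -4.46 to -1.16 for Fn1 and -4.06 to -0.35 for Has2. Thbs1 in the epidermis, within 1.5-fold as reported, ran from -0.73 to 1.03. Median-of-ratios scaling moved all ratios by at most 0.09. With 2 or 4 core genes in place of 3, Postn in Wnt-active cells was 1.56 or 2.54. With Wnt-active cells taken from clusters with 30 or more of them in both libraries, weighted alike and added after seeing the data, Postn was 2.45, Fn1 1.06 and Thbs1 -0.40, against 0.30 for Thbs1 over all Wnt-active cells. No paired analysis was possible because each genotype is 1 library. Members with few UMIs in the epidermis (Has2, Tnc, Thbs1 and Cd44) are limited by depth.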
